A study of Mus musculus with 6 samples.

Results

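Genes of the photoreceptor cilium and of intraflagellar transport (IFT) were examined in retinas with a Cre-driven knockout of the chromatin remodeller Atrx and in control retinas. The set was a list of 35 gene symbols, and a gene was followed where a probe set of the array was annotated with exactly that 1 symbol. This held for 34 of the 35, each with a single probe set, out of 15619 genes tested in all; no such probe set was found for Arl6, which is not analysed here. All 34 had log2 values of at least 5, the filter used against dim probe sets, on each of the 6 arrays, so none entered through 1 group alone. The knockout group held 3 samples of genotype Chx10Cre+/-;Atrx flox/y and the wildtype group 3 littermate samples of genotype Chx10Cre-/-;Atrx flox/y, so the controls carry the floxed allele too and lack only the Cre transgene. All mice were male and at postnatal day 17, and each sample was total RNA of whole retina pooled from both eyes, hybridised to an Affymetrix mouse gene array. The Cre transgene is driven in retinal progenitors, from which all neurons and Muller glia of the retina arise, and an effect of the transgene itself cannot be told apart from an effect of losing Atrx. By the series' design text this is the age of peak loss of amacrine and horizontal cells, and the comparison asks which genes differ then.

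The outer segment of a rod or cone is a modified cilium, joined to the cell body by a thin connecting cilium through which all of its proteins must pass. IFT moves cargo along the microtubules of the cilium with IFT-B complexes outward and IFT-A complexes back, while the BBSome, a coat built of Bardet-Biedl syndrome proteins, carries membrane proteins and keeps unwanted ones out of the outer segment. Mutations in many of these genes cause retinitis pigmentosa, Leber congenital amaurosis or syndromes with retinal degeneration.

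Atrx itself had log2 values of 8.42, 8.72 and 8.33 in knockout retinas, against 9.04, 8.86 and 9.17 in wildtype retinas. The groups did not overlap, but the log2 change of -0.53 (standard error, SE, 0.12) missed the threshold in limma's test over all genes (adjusted p = 0.115). Array medians lay between 5.57 and 5.64 and arrays correlated with Pearson's r of 0.975 to 0.993 across the genes tested. The labels say that the lens was taken off, yet lens genes were high on knockout 2 and wildtype 1: the mean of 13 lens genes was 10.21 and 11.47 there, against 5.96 and 6.39 on the other knockout arrays and 5.97 and 6.10 on the other wildtype arrays. The labels do not say whether the 3 samples of a group came from different litters or were processed together, and p-values measure only the spread between these samples.

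No cilium gene was called between genotypes: 0 of 34 had an adjusted p under 0.05 (limma, Benjamini-Hochberg over all genes), where 0.826% of all tested genes did (0.48% higher and 0.346% lower in knockout). The changes were small, between -0.19 and 0.42 on the log2 scale (knockout minus wildtype), and the largest was a 1.34-fold difference. All 34 intervals of 95% lay between -0.39 and 0.68, so none reached a doubling or a halving. Positive log2 changes were found for 25 genes and negative ones for 9, and the median change was 0.10, against 50.9% of genes above 0 and a median of 0.00 over all genes tested. The median was 0.06 without knockout 1, 0.06 after a second quantile normalization (with 23 genes above 0), and 0.04, with 19 genes above 0, when both lens-rich arrays were left out. With all arrays kept and the lens marker mean as a covariate, the median was 0.10, with 24 genes above 0. An unadjusted p under 0.05 was reached by 10 of 34 genes (29.4%, against 13.5% of all tested genes), and all 10 were higher in knockout, where 6.99% of all genes were higher and 6.5% lower at that threshold. The number was 5 without knockout 1, 6 without knockout 2 and 10 without knockout 3. It was 5 without wildtype 1, 5 without wildtype 2, 11 without wildtype 3 and 4 without both lens-rich arrays. The direction was not uniform in every setting. After a second quantile normalization 9 were higher and 2 lower, and without wildtype 3 10 were higher and 1 lower. With a log2 floor of 6, and with arrays centred on their median, 10 were higher and 1 lower. The counts were 11 and 1 with an intensity trend and robust spread, and 9 and 1 with array weights in limma. They were 6 and 1 with the spread of each gene alone, and 5 and 1 without knockout 2. Because the list was chosen with results of these data known, these shares are given as a description only. An exact permutation of 6 arrays in groups of 3 cannot give a p below 0.1, so no single gene can pass 0.05 by that test.

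**Figure D1:**
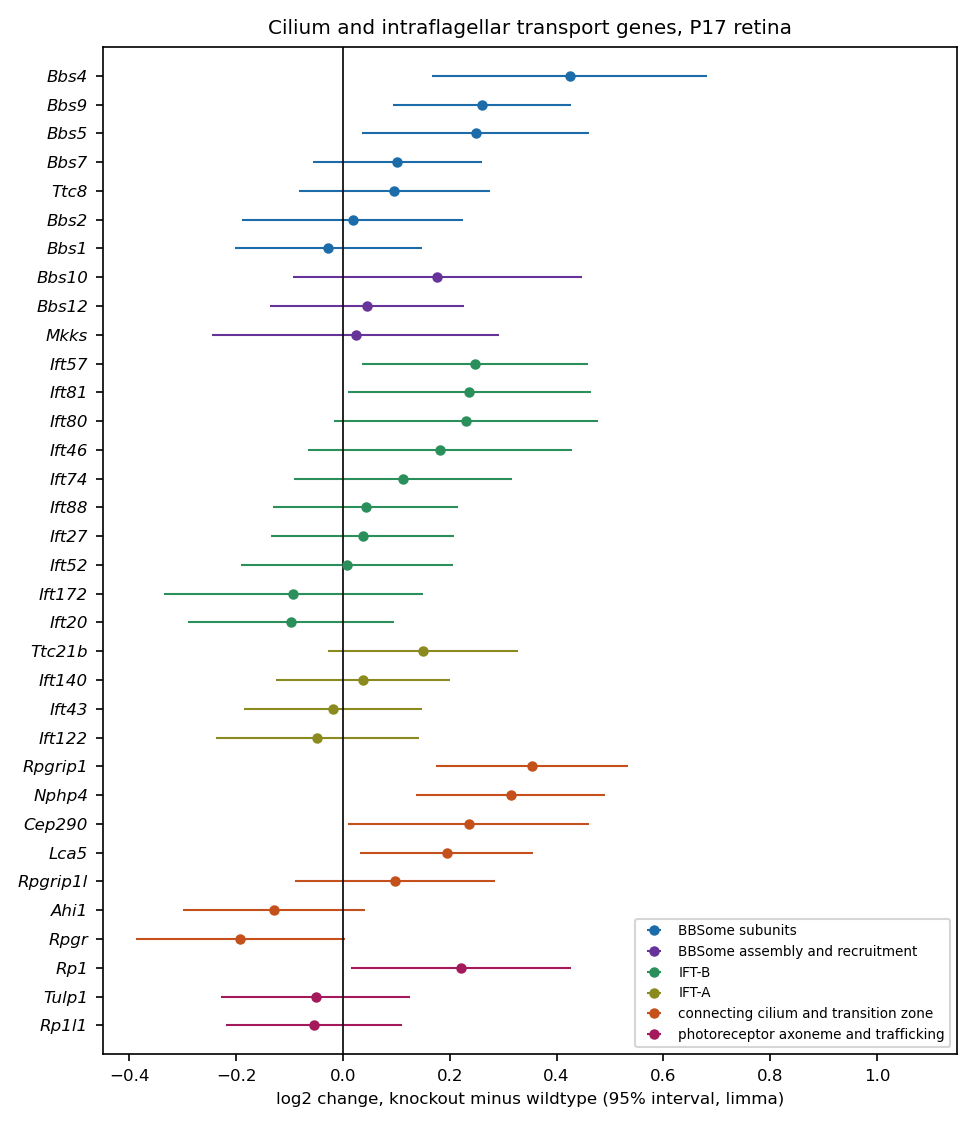
Log2 change between knockout and wildtype retina for 34 cilium genes, ordered by role group and then by change; points are limma estimates and lines their 95% intervals (n = 3 arrays per group). Most points lie between 0 and 0.3, with Bbs4 (0.42) at the upper end and Rpgr (-0.19) at the lower end.

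In 11 of the 34 genes the arrays of the 2 groups did not overlap (32.4%, against 20.3% of all tested genes). Knockout was higher in 9 of these (10.7% of all genes) and lower in 2 (9.58% of all genes). The 9 were Bbs4, Bbs5, Bbs7, Bbs9, Ift57, Ttc21b, Rpgrip1, Nphp4 and Lca5, and the 2 were Rpgr and Ahi1.

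The 7 tested BBSome subunits had 6 positive changes and a median of 0.10, with none called. Bbs4, a subunit that links the coat to its transport partners at the centriolar satellites and basal body, had log2 values of 10.17, 9.98 and 9.79 in knockout and 9.57, 9.44 and 9.66 in wildtype retinas. The lowest knockout array thus lay above the highest wildtype array, and the log2 change was 0.42 (SE 0.11, adjusted p = 0.154), the largest of the 34; the knockout arrays themselves spanned a wider range than the gap between the groups. Bbs9, a scaffold subunit of the core, had 10.48, 10.41 and 10.39 in knockout and 10.11, 10.19 and 10.19 in wildtype. Its arrays were tight within each group, and the log2 change was 0.26 (SE 0.073, adjusted p = 0.176). Bbs5, a subunit that binds membrane lipids, had 9.21, 9.14 and 8.97 in knockout and 8.75, 8.88 and 8.95 in wildtype. Its lowest knockout and highest wildtype arrays nearly touched (log2 change 0.25, SE 0.092, adjusted p = 0.301). Bbs7, a core propeller subunit, was on average 9.49 ± 0.01 in knockout and 9.39 ± 0.03 in wildtype (mean ± SD, n = 3 each), a small but non-overlapping difference of 0.10. The other subunits, Ttc8 (Bbs8) at 0.10, Bbs2 at 0.02 and Bbs1 at -0.03, overlapped between groups.

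The genes for proteins that help the BBSome form had a median change of 0.04 over 3 genes, with none called. Mkks, Bbs10 and Bbs12 are related to chaperonins and fold BBSome subunits into the coat; their log2 changes were 0.02, 0.18 and 0.04 (adjusted p from 0.555 to 0.948), and the groups overlapped in each. Bbs10 had the widest 95% interval of these on the upper side, reaching 0.45.

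IFT-B, the complex of outward transport, was represented by 10 genes, of which 8 had positive changes, with a median of 0.08 and none called. Ift57, a peripheral subunit, had 8.16, 8.23 and 7.98 in knockout and 7.98, 7.84 and 7.81 in wildtype. It was the only IFT-B gene without overlap, by the narrow margin of knockout 3 over wildtype 1 (log2 change 0.25, SE 0.092, adjusted p = 0.302). Ift81, which binds tubulin together with Ift74, had 8.49, 8.51 and 8.24 in knockout and 8.13, 8.11 and 8.28 in wildtype. Here knockout 3 lay below wildtype 3, and the change was 0.24 (SE 0.099, adjusted p = 0.355). Ift80, mutated in a skeletal ciliopathy, was next at 0.23 (adjusted p = 0.397), Ift46 at 0.18 and Ift74 at 0.11. Ift88, the core subunit whose loss in mice stunts outer segments, had 7.80, 7.90 and 7.77 in knockout and 7.73, 7.83 and 7.78 in wildtype, groups that interleave (log2 change 0.04, 95% interval -0.13 to 0.22). The small GTPase Ift27 (0.04) and the core subunit Ift52 (0.01) were also close to 0. Ift20, the subunit also found at the Golgi, was at -0.10 and Ift172 at -0.09, the only negative values of the complex.

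IFT-A, which serves return traffic and the entry of membrane proteins, showed the smallest median of the IFT groups, 0.01 over 4 genes. Ttc21b, the IFT139 subunit, had 7.81, 7.99 and 7.88 in knockout and 7.75, 7.71 and 7.77 in wildtype, without overlap (log2 change 0.15, SE 0.078, adjusted p = 0.449). Ift140 was at 0.04, Ift43 at -0.02 and Ift122 at -0.05, each with overlapping groups. Whether IFT-A and IFT-B genes differ from each other in their response was not tested.

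Genes of the connecting cilium and transition zone, the gate at its base,, had groups without overlap in 5 of 7 cases, 3 upward and 2 downward, with a median of 0.19 and none called. Over all tested genes 20.3% had groups without overlap, 10.7% upward and 9.58% downward. Rpgrip1, the scaffold that anchors Rpgr in the connecting cilium, had 10.82, 10.94 and 10.99 in knockout and 10.53, 10.55 and 10.62 in wildtype. The gap between the groups was larger than the range of either group, and the log2 change of 0.35 (SE 0.078) had the smallest adjusted p of the 34, 0.099. With an intensity trend and robust spread in limma it was called (adjusted p = 0.023), the only cilium gene called in any setting tried, where 1.81% of all genes were called. Nphp4, a transition zone protein that binds Rpgrip1, had 6.95, 7.00 and 7.09 in knockout and 6.64, 6.71 and 6.76 in wildtype. It too was separated by more than the range within groups (log2 change 0.31, SE 0.077, adjusted p = 0.132). Lca5, which encodes lebercilin, a ciliary partner of IFT proteins, had 8.77, 8.83 and 8.76 in knockout and 8.55, 8.60 and 8.62 in wildtype. Its arrays were tight within each group, and the log2 change was 0.19 (SE 0.071, adjusted p = 0.292). Cep290, which links microtubules to membrane in the transition zone, had 9.63, 9.74 and 9.49 in knockout and 9.36, 9.27 and 9.52 in wildtype. Wildtype 3 lay above knockout 3, so the groups overlapped (log2 change 0.24, SE 0.099, adjusted p = 0.355). Rpgrip1l, the broadly expressed relative of Rpgrip1, was at 0.10 with overlapping groups.

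The 2 genes that lay the other way belong to the same compartment. Rpgr, the X-linked retinitis pigmentosa gene whose product is held in the connecting cilium by Rpgrip1, had 7.90, 8.01 and 7.80 in knockout and 8.16, 8.11 and 8.01 in wildtype. Knockout 2 and wildtype 3 nearly met, and the log2 change was -0.19 (SE 0.085, adjusted p = 0.380, 95% interval -0.39 to 0.00). Ahi1, the jouberin gene, had 9.29, 9.27 and 9.23 in knockout and 9.42, 9.31 and 9.44 in wildtype, with a change of -0.13 (SE 0.074, adjusted p = 0.497). Values of Rpgr and Rpgrip1 thus lay on opposite sides of 0, and neither was called in the main fit.

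Axonemal and trafficking proteins of the outer segment made the last group. Rp1, a doublecortin-family protein that binds the axoneme and stacks discs, had 10.94, 10.92 and 10.81 in knockout and 10.62, 10.58 and 10.82 in wildtype. Wildtype 3 sat level with knockout 3 while the other arrays were apart (log2 change 0.22, SE 0.090, adjusted p = 0.338). Its relative Rp1l1 was at -0.05, with 9.99 ± 0.05 in knockout and 10.05 ± 0.04 in wildtype. Tulp1, the tubby-like protein needed for protein transport to the outer segment, had 10.93, 10.90 and 11.05 in knockout and 10.97, 11.06 and 11.01 in wildtype, with overlap (log2 change -0.05, 95% interval -0.23 to 0.13).

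**Figure D2:**
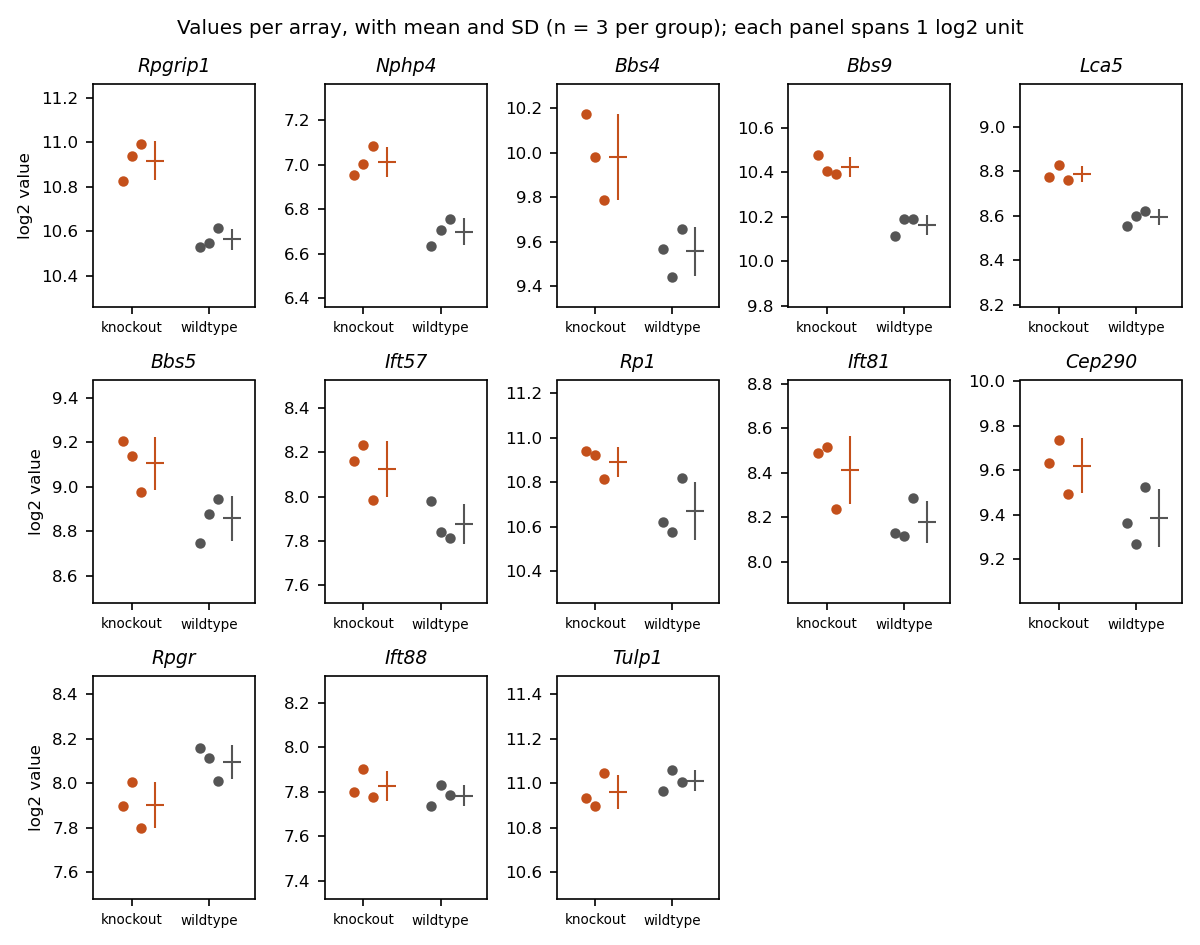
Log2 values per array of the 10 cilium genes with an unadjusted p under 0.05 and of Rpgr, Ift88 and Tulp1; points are arrays (knockout left, wildtype right), with the mean and SD beside them, and every panel spans 1 log2 unit. Rpgrip1, Nphp4, Bbs9 and Lca5 show a gap wider than the points within a group, while Rp1, Ift81 and Cep290 overlap through knockout 3 and wildtype 3.

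The arrays were not interchangeable within a group for these genes. Knockout 3 was the lowest knockout array for 26 of 34 cilium genes (76.5%), where it was the lowest for 37.8% of all tested genes. Wildtype 3 was the highest wildtype array for 22 of 34 (64.7%, against 39.7% of all tested genes). As a deviation from each gene's mean over 6 arrays, the median of the cilium genes was 0.07 on knockout 1, 0.09 on knockout 2 and -0.03 on knockout 3, against -0.07, -0.05 and 0.01 on wildtype 1, 2 and 3. The medians of knockout 3 and wildtype 3 were therefore not in the order of the genotypes, and without wildtype 3 the median log2 change was 0.11, with 27 genes above 0. Over all tested genes the same medians stayed between -0.01 and 0.02. The SD within a group had a median of 0.09 in knockout and 0.06 in wildtype, against 0.12 and 0.09 over all tested genes. These sets are not matched in level, as the lowest mean was 6.62 among the cilium genes and 4.79 over all tested genes.

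**Figure D3:**
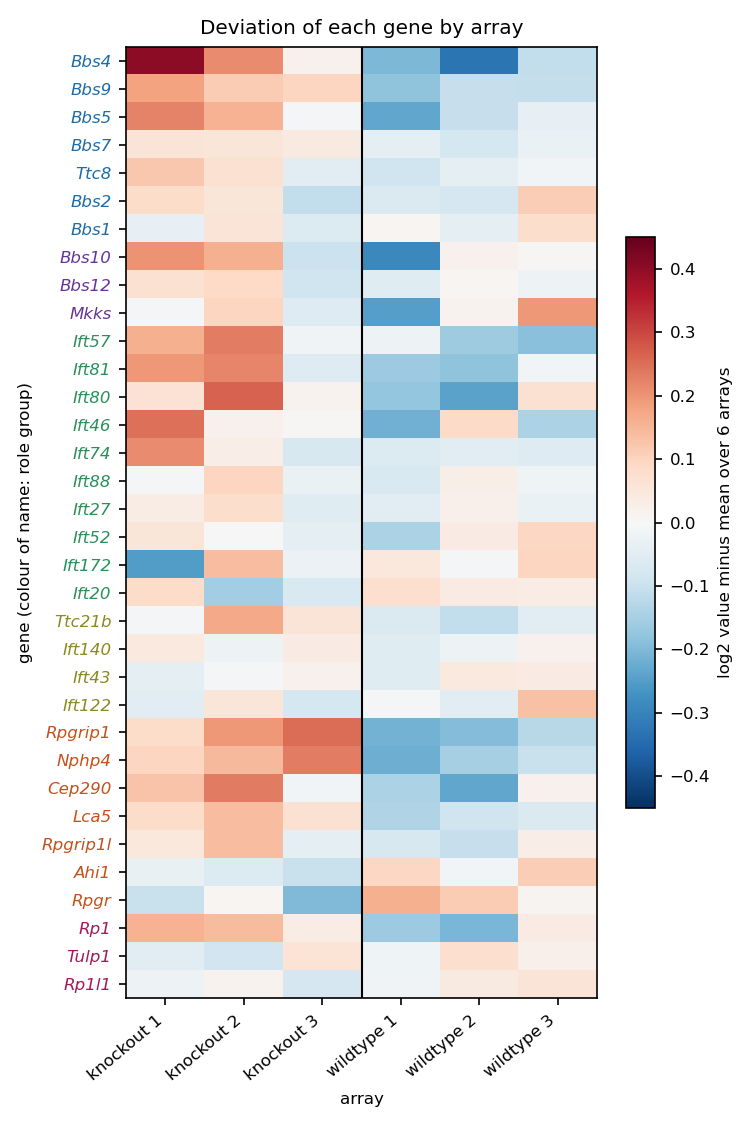
Deviation of each cilium gene from its mean over 6 arrays, on the log2 scale (red higher, blue lower; names coloured by role group; knockout arrays left of the line, wildtype right). Knockout 1 and 2 are mostly red and wildtype 1 and 2 mostly blue, while knockout 3 and wildtype 3 are paler or turned for many genes; Rpgr and Ahi1 run the other way.

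A wider list of 84 tested cilium genes outside the 34 (of 113 listed) was read beside them. None was called (0.826% of all tested genes), 62 of 84 had positive changes with a median of 0.09, and groups did not overlap in 22 upward and 1 downward (10.7% and 9.58% of all tested genes). The smallest adjusted p was that of Mak, 0.109, a kinase that restrains the length of the photoreceptor axoneme. Mak had 10.97, 10.86 and 10.85 in knockout and 10.54, 10.47 and 10.63 in wildtype (log2 change 0.35, SE 0.080), and with an intensity trend and robust spread it was called (adjusted p = 0.027). Rab3ip, the exchange factor Rabin8 that starts ciliary membrane growth, followed at 0.34 (adjusted p = 0.140). Dync2li1, a light intermediate chain of the return motor, was at 0.31, and the IFT-B gene Ttc26 (IFT56) at 0.38. Further genes among the 10 smallest p-values were Dcdc2a (0.44), the transition zone genes Tmem138 (0.27) and Tmem237 (0.28), Fam161a (0.25), a microtubule protein of the connecting cilium, and Ofd1 (0.28), a basal body protein. Kif17, a kinesin of the ciliary tip in several species, was the only one of the 10 below 0 (5.54, 5.35 and 5.30 in knockout, 5.64, 5.78 and 5.71 in wildtype, log2 change -0.31, adjusted p = 0.185); its values lie near the filter, where background limits the change seen.

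By subgroup the wider list varied in level of change. Other genes of the photoreceptor cilium and basal body had a median of 0.16, with 19 of 22 above 0 and 10 without overlap upward, where 50.9% of all tested genes were above 0 and 10.7% had no overlap upward. The subgroup of BBS and small GTPase genes had a median of 0.10 over 14 genes, other IFT subunits 0.09 over 9 and other transition zone genes 0.03 over 21. Ciliary motors (median 0.00, 6 of 12 above 0) and genes of the Usher complex (0.00, 3 of 6 above 0) were centred on 0.

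Markers of the cell classes were read from the same arrays. Rod markers, from the cells that hold most connecting cilia of the mouse retina, had a median log2 change of 0.09 over 14 genes. Of these, 10 were above 0 and none was called. Groups did not overlap in 6 of the 14, all upward (42.9%, against 10.7% of all tested genes). The 3 with an unadjusted p under 0.05 were all higher in knockout. Samd7 had the largest change (0.52, adjusted p = 0.055), where the largest of the 34 cilium genes was 0.42. With an intensity trend and robust spread, Samd7 and Gngt1 (0.35) were called, where 1.81% of all genes were, and Rcvrn was not. Samd7 was also called with a log2 floor of 6 (adjusted p = 0.027) and with arrays centred on their median (0.046). It was not called after a second quantile normalization (0.054). The mean level of the rod markers lay between 11.59 and 11.62 on knockout arrays and between 11.43 and 11.53 on wildtype arrays. Cone markers had a median of 0.06 over 13 genes, with 7 above 0 and 6 below. An unadjusted p under 0.05 was reached by 2 that were higher and 3 that were lower in knockout, and groups did not overlap in 3 upward and 3 downward (10.7% and 9.58% of all tested genes). Of the 13, 1 was called (0.826% of all tested genes), the channel subunit Cngb3 (0.54, adjusted p = 0.049), a call that was lost without any 1 array (adjusted p from 0.067 to 0.231). The Cngb3 call was also lost with no filter on dim probe sets (0.123), a second quantile normalization (0.052) and arrays centred on their median (0.059). The cone genes next in order of p lay the other way, the short-wave opsin gene Opn1sw at -0.32 (adjusted p = 0.159) and the nuclear receptor gene Rxrg at -0.32 (adjusted p = 0.169), each with groups that did not overlap. Amacrine markers had a median of -0.37, with 6 of 15 called and all 6 lower in knockout, including Slc5a7 (-1.56, adjusted p = 0.0038), where 0.346% of all tested genes were called lower. Their mean level was 7.02 to 7.32 on knockout arrays and 7.62 to 7.73 on wildtype arrays. Horizontal cell markers had a median of -0.09 over 8 genes, with none called, and groups did not overlap in 1 upward and 3 downward. Bipolar (0.01), Muller glia (0.05) and ganglion cell markers (-0.06) had medians near 0, with none called among 13, 12 and 10 genes. These medians hold changes of both signs. Groups did not overlap in 4 bipolar genes upward and 2 downward, and in 2 Muller glia genes upward and 4 downward. Among ganglion cell genes it was 1 each way (10.7% and 9.58% of all tested genes). Bipolar changes ran from -0.38 to 0.39. Abca8a of Muller glia was at 0.44 and Nefh of ganglion cells at -0.40. Both were called in the trend setting that called Samd7 (adjusted p = 0.015 and 0.031), where 1.81% of all genes were. Whole retina was measured, so a change in the share of a cell type and a change in RNA per cell cannot be told apart, and the part of cell composition in the small positive changes of the cilium genes was not tested. Markers of pigment epithelium, which has cilia of its own, ranged from 8.72 to 9.72 on knockout arrays and from 9.19 to 9.91 on wildtype arrays, a spread larger than the difference between groups. None of the 11 was called, at a median log2 change of -0.19, and their part was not tested.

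**Figure D4:**
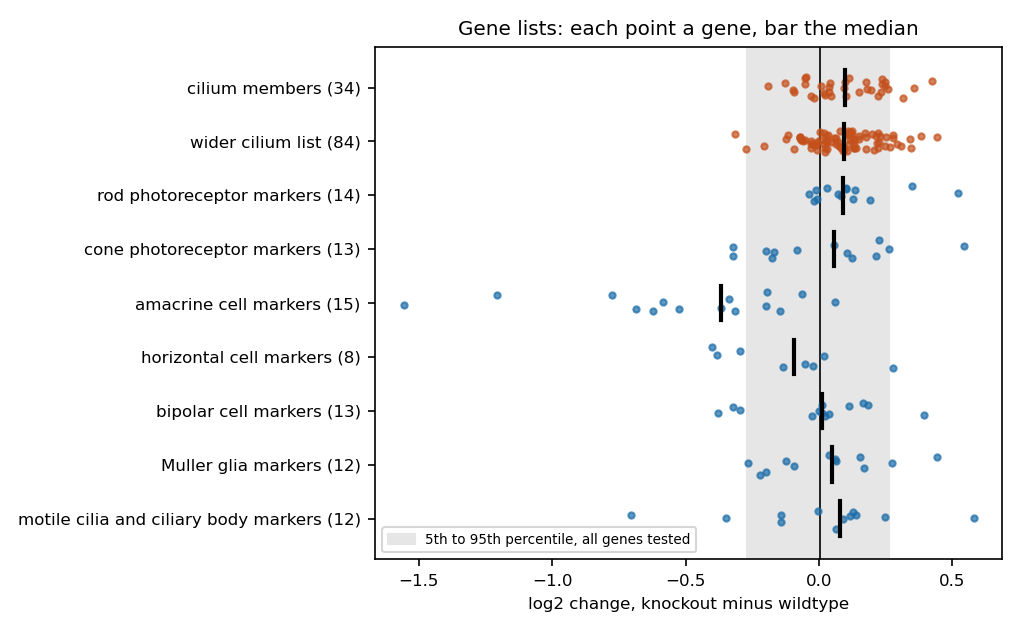
Log2 change of each gene (points) in the cilium list, the wider cilium list and lists of cell class markers, with the number of genes in brackets; thick bars are medians, and the grey band spans the 5th to 95th percentile of all genes tested. Both cilium lists sit slightly right of 0 (medians 0.10 and 0.09), beside rod markers (0.09), while amacrine markers reach far to the left (median -0.37).

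Markers of motile cilia and ciliary body were also read, and whether another ciliated tissue was carried over was not tested. Of 12 tested genes 2 were called, in opposite directions, where 0.48% of all tested genes were called higher and 0.346% lower in knockout: Rfx2, a transcription factor of ciliary genes, rose (0.58, SE 0.082, adjusted p = 0.019) and Dnah9, a dynein of motile cilia, fell (-0.70, SE 0.097, adjusted p = 0.017). The related factor Rfx3 was at 0.25 (adjusted p = 0.214). The call of Rfx2 was lost without any 1 array other than knockout 2 (adjusted p from 0.072 to 0.115), and that of Dnah9 without wildtype 1, 2 or 3 (0.054 to 0.104). The mean level of the list was 6.07 to 6.13 on knockout arrays and 6.06 to 6.14 on wildtype arrays, and 9 of its 21 genes were not tested.

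RFX factors bind the X-box, an inverted repeat found before many ciliary genes, so the promoters of the cilium genes were read for it. RefSeq promoter windows (build GRCm38.p6, 250 bases before to 50 bases after an annotated start) were found for 29 of the 34. The motif searched, on both strands, was GTNNCC and NGNAAC with a gap of 0 to 3 bases between them. It occurred in 8 of the 29 genes (27.6%, exact 95% interval 12.7 to 47.2%, counting error only), against 5.94% of 27025 genes with such windows and 6.84% of the tested genes among them. In the wider list it occurred in 18 of 75 genes (24.0%). The first match in the window of each of the 8 genes is shown because this motif was held by a larger share of the cilium genes than of all genes. Each line is on the gene's own strand, with the match in capitals.

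Bbs4, chr9:59353464-59353493: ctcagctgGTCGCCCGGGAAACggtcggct
Nphp4, chr4:152477903-152477932: cggtgcccGTCTCCTAGGTAACgcgccagc
Ift57, chr16:49699199-49699228: cgggtctgGTTGCCGTGGTGACcggctgcc
Lca5, chr9:83441138-83441167: ggagtccaGTAACCAATGGGAACtggggga
Ift74, chr4:94614477-94614506: gcggtgaccGTTGCTAGGATACgcggcgtc
Bbs7, chr3:36613489-36613518: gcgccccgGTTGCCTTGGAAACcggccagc
Bbs1, chr19:4906605-4906634: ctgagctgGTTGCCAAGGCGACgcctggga
Ahi1, chr10:20952560-20952589: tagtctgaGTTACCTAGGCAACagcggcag

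Genes with a match were found at both ends of the range of change. Their log2 changes were 0.42 for Bbs4, 0.31 for Nphp4, 0.25 for Ift57, 0.19 for Lca5, 0.11 for Ift74, 0.10 for Bbs7, -0.03 for Bbs1 and -0.13 for Ahi1. Groups did not overlap in 5 of the 8 upward and in 1 downward (10.7% and 9.58% of all tested genes). The median change of the 8 was 0.15, against 0.04 in the 21 genes without a match, of which 4 did not overlap upward. Over the 831 tested genes that hold the motif the median change was 0.02 and 12.8% did not overlap upward, near the 10.7% of all tested genes. Whether a match goes with the change was not tested. No match was found in the promoter windows of Rpgrip1, Bbs9 or Bbs5. A gap of 0 gave no match in any of the 29 genes, against 1.05% of all genes.

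**Figure D5:**
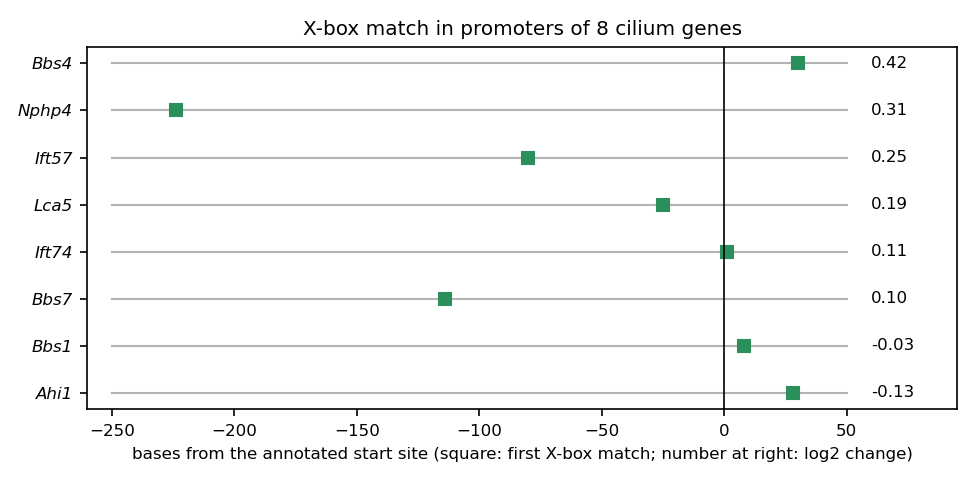
Position of the first X-box match (square, 1 per gene) along the promoter window of 8 cilium genes, in bases from the annotated start site (vertical line), with the log2 change of the gene at right. The centres of the matches lie between positions -224 and 30, and genes are ordered from the highest change (Bbs4, 0.42) to the lowest (Ahi1, -0.13).

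Rpgrip1, the cilium gene with the smallest adjusted p, holds instead a match to TAATCC, the core bound by the photoreceptor factors CRX and OTX2, on the strand opposite to the gene and beginning 28 bases before the start site (position -28). The motif, searched on both strands, occurred in 2 of 29 cilium genes, Rpgrip1 and Bbs1 (6.90%), against 8.14% of all genes, a share near the background. The window of Rpgrip1, chr14:52110653-52110952 on the plus strand, is given whole to show the surroundings of that match, with the match in capitals, and that of Bbs4, chr9:59353459-59353758 on the minus strand, for the gene with the largest change, with its X-box in capitals.

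Rpgrip1: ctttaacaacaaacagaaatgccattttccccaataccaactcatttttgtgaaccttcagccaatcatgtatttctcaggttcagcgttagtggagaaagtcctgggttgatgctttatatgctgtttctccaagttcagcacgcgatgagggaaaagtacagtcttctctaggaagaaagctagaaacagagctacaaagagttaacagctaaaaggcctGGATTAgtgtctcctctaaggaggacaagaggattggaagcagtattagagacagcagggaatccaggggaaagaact
Bbs4: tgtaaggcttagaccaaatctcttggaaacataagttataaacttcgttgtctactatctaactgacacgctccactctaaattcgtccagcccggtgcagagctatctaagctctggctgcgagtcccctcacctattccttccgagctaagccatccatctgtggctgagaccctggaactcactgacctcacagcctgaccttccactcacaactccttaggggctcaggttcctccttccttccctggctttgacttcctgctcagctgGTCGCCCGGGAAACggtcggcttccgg

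These letters show where a motif stands and say nothing of whether a factor binds there in retina.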

How the data were processed

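Gene expression was measured on 6 Affymetrix mouse gene arrays, 3 knockout and 3 wildtype, from 100 ng of total RNA each, per the labels' protocols. The deposited values are log2 expression per probe set, made by the authors with RMA (background correction, quantile normalization and summary of probes) per the submitters' processing notes; the software version is not given in the sources used. Quantile normalization hides changes in total RNA, and background compresses changes of dim probe sets. Of 41345 probe sets, the platform annotation names 1 gene for 23521, several for 1814 and no gene for 16010. Of those with 1 symbol, 23328 matched the RefSeq table of GRCm38.p6 by gene identifier. Probe sets with 1 symbol and a log2 value of at least 5 on at least 3 arrays were kept, the brightest one per gene. Differences were fitted with limma 3.58.1 in R 4.3.3 (lmFit, eBayes, genotype as the only term, 2-sided), adjusted by Benjamini-Hochberg over 15619 genes, and called at an adjusted p under 0.05. The median SE was 0.095, and precision is limited by having 6 arrays. The procedure was tested on simulated arrays with independent noise. These held no lens-rich arrays, so that test does not cover such differences between arrays. Members and lists were chosen with earlier results of these data known. Members with an unadjusted p under 0.05, and Rpgr, Cep290, Ift88, Bbs4, Rp1 and Tulp1, are given with all values. Other members with all 6 values, and Bbs7, were added because their groups did not overlap, after their values were seen. From the wider list the 10 genes with the smallest p are named, and up to 3 markers per list. Some items are not reported here. Alternatives covered the filter, normalization, variance model, probe set rule, lens-rich arrays, replicate block and each array left out. Figures were drawn with matplotlib 3.10.9.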

Additional observations from a re-analysis of the deposited data

How the results depend on the processing

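All alternatives were planned with earlier results of these data known. The count of cilium genes called was 0 in all settings but 1, an intensity trend with robust spread, which called 1 (Rpgrip1), and the wider list had 0 called except for 1 (Mak) with that trend. Over all genes 129 were called, against 74 with no filter on dim probe sets, 209 with a log2 floor of 6, 282 with the intensity trend, 45 with every probe set tested on its own, 1 with the spread of each gene alone, and 36 without knockout 2 and wildtype 1. Leaving out 1 array gave 25 (without wildtype 2) to 141 (without knockout 2). With the replicate number as a block the count was 68, with 5 cilium genes at an unadjusted p under 0.05 in place of 10. The share of all tested genes at that threshold with the block is not given here. Arrays of the same number did not deviate together (r of -0.27, -0.38 and -0.06). The highest r between a knockout and a wildtype array, 0.387, was that of the lens-rich arrays, knockout 2 and wildtype 1. With so few arrays per group and this difference in lens genes, the correlations cannot decide whether the numbers pair the samples. The share of promoters with an X-box, 27.6%, was 0% with a gap of 0. Of the 34 cilium genes 25 kept their sign in all 18 alternatives that refit the change, and the 9 that did not had changes within 0.1 of 0. A second quantile normalization gave -0.011 for Bbs2 and -0.014 for Ift52. Without knockout 2 and wildtype 1 the values were -0.032 for Bbs2, -0.14 for Mkks, -0.0045 for Bbs12, -0.0072 for Ift27, -0.060 for Ift52 and -0.021 for Ift88, and with the lens marker mean as a covariate Ift52 was at -0.000287. With 1 array left out, Bbs1 ran from -0.063 to 0.0044, Bbs2 from -0.019 to 0.079, Mkks from -0.095 to 0.13, Ift52 from -0.061 to 0.057, Ift172 from -0.19 to 0.0091 and Ift122 from -0.088 to 0.0048. The cause of these shifts was not tested. Changes of dim probe sets, such as Kif17, are limited by background.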
